A study of Mus musculus with 6 samples.

Results

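Transcripts of 31 genes that report on RAS-MAPK signalling and on fresh stimulation of the cell were followed in mouse neurospheres, clusters of neural stem cells and their progeny that grow in suspension. The genes were taken from a list of names, all 31 were present among the 17551 genes of the count table, and all 31 passed the filter on low counts that left 14643 genes for testing. Of these, 17 are feedback regulators and outputs of the kinase ERK (3 feedback phosphatases, 6 Sprouty and Spred genes, 3 ETS factors and 5 other outputs), and 14 are immediate early genes (6 AP-1 subunits and 8 others).

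Growth factor receptors load RAS with GTP, RAS activates the kinases RAF, MEK and ERK in turn, and ERK phosphorylates transcription factors. Cells with active ERK transcribe their own brakes, the dual-specificity phosphatases of the DUSP family, which remove phosphate from ERK, and the Sprouty and Spred proteins, which act further up between receptor and RAF. The same cells transcribe the ETS factors Etv1, Etv4 and Etv5, and these feedback genes are widely read as a gauge of sustained ERK activity. Immediate early genes such as Fos, Jun and Egr1 are instead transcribed within minutes of a stimulus without new protein synthesis, and their mRNAs are short-lived. In neural progenitors EGF and FGF are the usual inputs to this pathway.

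The 3 G328V libraries came from neurospheres whose genotype label is ACVR1 G328V, a glycine-to-valine change in the type I bone morphogenetic protein (BMP) receptor Acvr1, and the 3 WT libraries from neurospheres labelled ACVR1 WT. Both groups were on a C57BL/6 background and were fed EGF and FGF in a DMEM/F12 medium supplemented with N2 and B27, per the labels. The growth factors named are thus the same for both groups, which does not show equal input to the pathway. The sample titles carry the codes NPAC for G328V and NPC for WT, and the design text calls the WT group NP. These codes are not expanded in the sources used here, so which other alleles the groups share or do not share, and how the mutant was made, are not given. The series describes 3 biological replicates a group, numbered 1, 2 and 3 in G328V and 1, 3 and 70A in WT.

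Library totals were 115953495 to 182626231 counts in G328V and 120457925 to 191115532 in WT. Acvr1 itself held 244, 250 and 650 CPM in G328V, against 42.4, 100 and 90.7 CPM in WT, where CPM is the count scaled to library size with TMM factors. The deposited Cufflinks table estimated 35229, 24978 and 105736 fragments of Acvr1 in G328V, against 2687, 9062 and 8128 in WT. That is 1.13 to 1.21 counts per fragment in G328V and 1.94 in WT, so the size of this difference depends on the table. Over 8924 genes the median was 1.95 to 1.96 counts per fragment in every library, so a count is not a fragment. The count table does not separate mutant from wild-type transcripts. Of 13 neural stem and radial glia markers 12 were tested. They summed to 2492, 2828 and 3827 CPM in G328V and 9464, 2397 and 3680 CPM in WT. Their log2 differences (G328V minus WT) ran from -10.7 to 2.81, with 4 above 0 and 8 below. edgeR called 0 of them and DESeq2 called 1, lower in G328V, where DESeq2 called 1.05% of all genes. Sox2 among them held 145, 207 and 237 CPM in G328V and 178, 179 and 134 CPM in WT. Xist, which is transcribed from the inactive X chromosome, held 76093, 95736 and 128424 counts in G328V and 106, 44 and 206 counts in WT, so the sex of the cells and the genotype cannot be told apart. WT replicate 1 stood apart from the other libraries: Olig2, a transcription factor of the oligodendrocyte lineage, held 51237 counts there and at most 161 counts in any other library.

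No member passed the test between the genotypes. edgeR's quasi-likelihood test with Benjamini-Hochberg adjustment over 14643 genes called 0 of the 31 members, and it called 0 genes in all (0%), so Xist, with a log2 difference of 9.72, was not called either. DESeq2 called 0 of the 31 members as well, while it called 173 of the 16521 genes to which it gave an adjusted p (1.05%). At an unadjusted p under 0.05, edgeR placed 2 of the 31 members, Fos higher in G328V and Jun lower, where 4.06% of all genes reached that p (1.88% higher and 2.17% lower). The G328V and WT levels did not overlap for 3 members, Fos and Dusp4 higher in G328V and Jund lower. Over all genes the groups did not overlap for 9.7% (5.25% higher and 4.45% lower), so the members' counts lay close to this background.

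The differences of the 31 members were centred close to 0. Their median log2 difference (G328V minus WT) was 0.03, against -0.0039 over all genes tested, with 16 members above 0 and 15 below. A difference of at least 2-fold in either direction was fitted for 5 of the 31 members (16.1%), against 22.6% of all genes. The 5 were Fos, Dusp1 and Nr4a2 on the higher side and Jun and Ier3 on the lower side. The median standard error of a member's log2 difference was 0.60, and for 19 members the difference was smaller than its own standard error. These values bound each gene only loosely, and a missed threshold does not show equal expression. In bulk RNA, moreover, fewer cells of a type and less RNA per cell cannot be told apart.

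**Figure D1:**
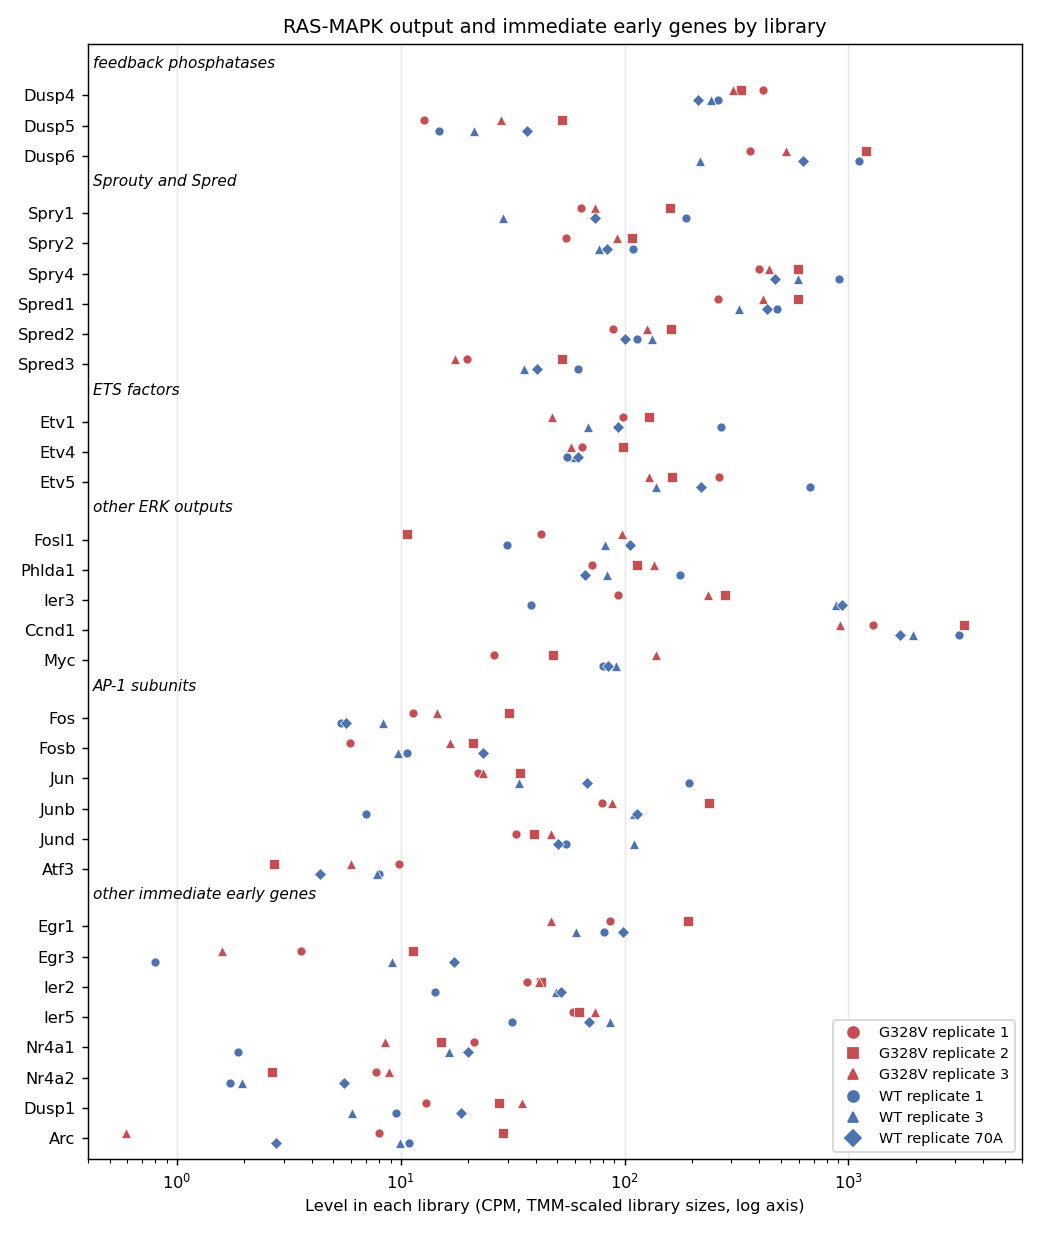
Level of each of the 31 members in each library, in TMM-scaled CPM on a log axis, with G328V libraries in red above WT libraries in blue and the replicate shown by the marker shape. Libraries of 1 genotype spread widely: the range within a group exceeded 2-fold for 21 members in G328V and for 19 members in WT.

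Expressed per kilobase of merged exon, levels ran over more than 2 orders of magnitude among the members. Ccnd1, which encodes cyclin D1, the partner of CDK4 and CDK6 in G1, averaged 389 CPM per kb in G328V and 480 CPM per kb in WT and was the most abundant member. Ier3, Dusp6, Spry4 and Dusp4 followed it in the mean over all libraries. At the other end stood Nr4a2, an orphan nuclear receptor, with 1.59 CPM per kb in G328V and 0.757 CPM per kb in WT. At least 10 CPM in every library was held by 22 members. The other 9 were all immediate early genes, Fos, Fosb, Junb, Atf3, Egr3, Nr4a1, Nr4a2, Dusp1 and Arc. The plot of levels by library shows this order and the spread around it.

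Among the feedback phosphatases Dusp4 was the member with the tightest groups. It encodes a nuclear phosphatase of ERK and other MAP kinases, and it held 416, 332 and 306 CPM in G328V replicates 1, 2 and 3, whereas WT replicates 1, 3 and 70A had 262, 244 and 214 CPM. Every G328V library lay above every WT library. The mean was 351 ± 57.3 CPM in G328V and 240 ± 24.6 CPM in WT (SD, n = 3 each). G328V minus WT came to 0.55 on the log2 scale (standard error, SE, 0.23), and edgeR gave an unadjusted p of 0.051 and an adjusted p of 0.997. It stayed between 0.41 and 0.67 under all 15 alternative settings, the smallest value coming without G328V replicate 1.

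Dusp6, the cytoplasmic phosphatase specific to ERK and one of the most direct gauges of ERK activity, behaved otherwise. It held 365, 1193 and 525 CPM in G328V, against 1121, 217 and 628 CPM in WT. Each genotype had a library near the top and one near the bottom, so the ranges overlapped almost entirely. On the log2 scale the genotypes differed by 0.08 (SE 0.69), with a 95% interval of -1.61 to 1.77. Dusp5, a nuclear phosphatase of ERK, ranged from 12.8 to 52.7 CPM in G328V and from 14.8 to 36.7 CPM in WT, with a log2 difference of 0.36 (SE 0.60).

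The 6 Sprouty and Spred genes had 3 positive and 3 negative differences, with a median of -0.03 on the log2 scale, and none had groups that did not overlap. Spry4, an inhibitor of receptor signalling to RAS, held 398, 599 and 440 CPM in G328V, against 906, 597 and 469 CPM in WT. WT replicate 1 was the highest library and the other WT libraries lay within the G328V range. Its log2 difference was -0.46 (SE 0.33).

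Spred1, which brings neurofibromin to the membrane to switch RAS off, held 260, 597 and 416 CPM in G328V, against 481, 326 and 432 CPM in WT. The WT range lay inside that of G328V. A log2 difference of 0.04 (SE 0.36) was fitted, and the 95% interval ran from -0.83 to 0.91. The other 4 genes were Spry1, Spry2, Spred2 and Spred3, with log2 differences of -0.62 for Spred3 to 0.11 for Spred2. Spry1 had the widest WT range of the 6, at 63.8, 159 and 73.6 CPM in G328V and 188, 28.6 and 74.1 CPM in WT, and is given by library because of that spread, which was seen first.

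In 2 of the 3 ETS factors 1 library carried the difference. Etv5 held 265, 163 and 128 CPM in G328V, against 675, 139 and 221 CPM in WT. WT replicate 1 was far above all other libraries, and the other WT values lay within the G328V range. With all libraries the log2 difference was -0.89 (SE 0.64), and without WT replicate 1 it was 0.03. Etv1, chosen for mention after its values were seen, was also highest in WT replicate 1, with 98.7, 128 and 47.5 CPM in G328V and 269, 68.6 and 93.0 CPM in WT. Its log2 difference was -0.65, and 0.16 without that library.

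Etv4 was the evenest of the ETS factors in WT. It held 64.4, 98.8 and 57.6 CPM in G328V, against 55.2, 60.2 and 61.8 CPM in WT. G328V replicate 2 was the highest library, and G328V replicate 3 lay within the WT range. Etv4 had a log2 difference of 0.32 (SE 0.28).

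All 5 other ERK outputs had log2 differences below 0, from -1.60 to -0.02, and in all 5 the groups overlapped. Without G328V replicate 1, 3 of the 5 were below 0, with Phlda1 at 0.20 and Myc at 0.13. Ccnd1 held 1293, 3285 and 922 CPM in G328V, against 3131, 1946 and 1710 CPM in WT. A G328V library was the highest and another the lowest of the 6. Its log2 difference was -0.30 (SE 0.54), and it was -1.03 without G328V replicate 2 and 0.02 without G328V replicate 3.

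Ier3, an early response gene linked to cell survival, held 93.5, 282 and 236 CPM in G328V, against 38.2, 882 and 934 CPM in WT. WT replicates 3 and 70A lay above every G328V library and WT replicate 1 below every one, a 24.4-fold range within WT. Ier3 had a log2 difference of -1.60 (SE 1.06), and of -2.18 without WT replicate 1. Myc, a transcription factor of growth, ranged from 26.2 to 138 CPM in G328V and from 79.9 to 91.5 CPM in WT. Phlda1, a pleckstrin homology-like protein, ranged from 71.8 to 136 CPM in G328V and from 66.5 to 176 CPM in WT, and the log2 differences of both were smaller than their standard errors.

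Fosl1, the AP-1 subunit FRA1, ranged from 10.6 to 97.2 CPM in G328V and from 29.7 to 106 CPM in WT, but its counts are uncertain. The annotation places it across Ccdc85b, a gene on the opposite strand. For Fosl1 the HTSeq count was 5.89 to 9.71 times the fragments that Cufflinks gave, whereas it lay between 1.6 and 2.1 for the other 30 members. For Ccdc85b it was 0.26 to 1.59 times the fragments. How the reads of this pair were divided between the genes was not tested. Fosl1 had a log2 difference of -0.54 (SE 0.83) from the HTSeq counts and -0.45 (SE 0.85) from the Cufflinks estimates. In all, 12 members overlap a gene on the opposite strand, 5 of them (Ccnd1, Dusp1, Fosl1, Junb and Spred3) a protein-coding one, and whether the counting used strand is not given. Dusp5, Jun and Jund each overlap an annotated antisense RNA, and if strand was not used their counts may be affected by reads of that RNA.

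**Figure D2:**
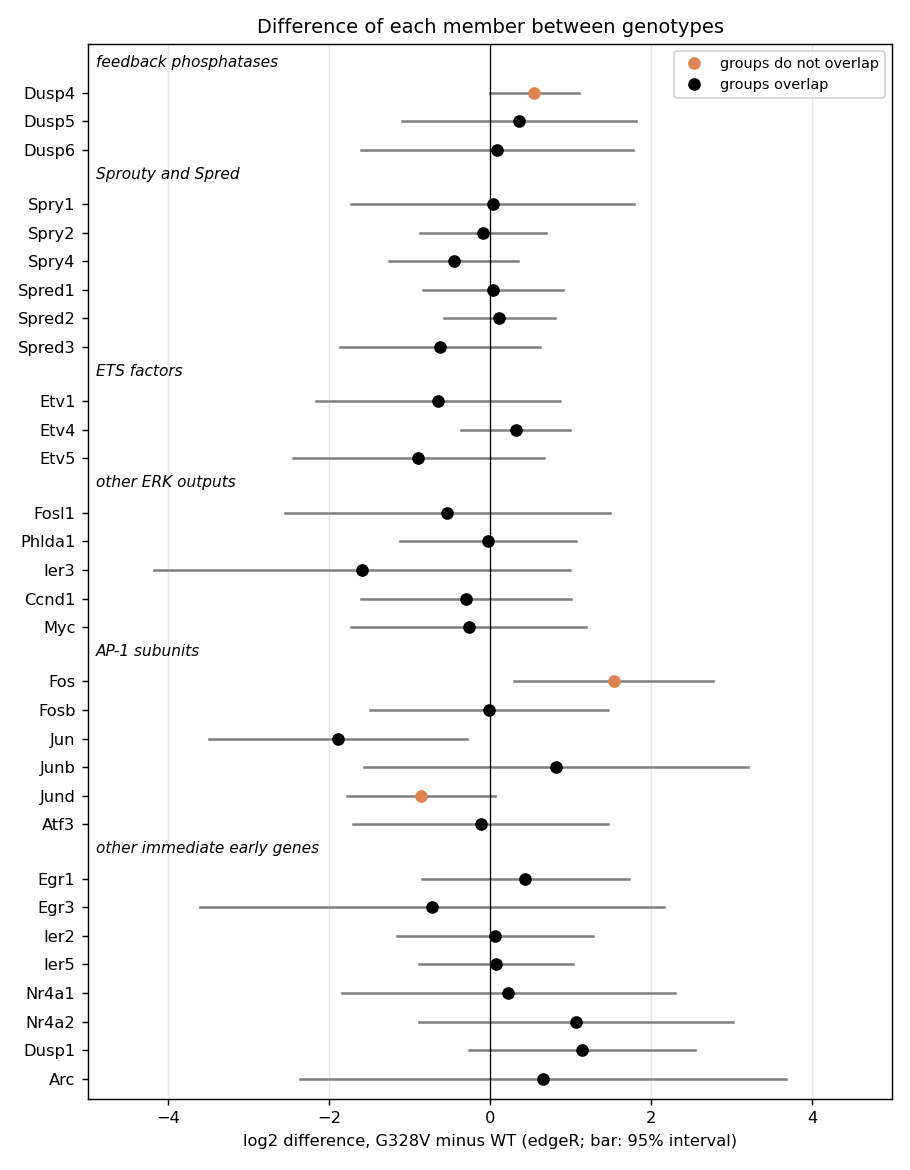
Log2 difference of each member (G328V minus WT, edgeR), by role, with its 95% interval as a bar and the members whose groups do not overlap in orange. The intervals of 29 of the 31 members hold 0, and those of Fos and Jun do not.

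The AP-1 subunits held both members with an unadjusted p under 0.05. AP-1 is a dimer of a Fos and a Jun protein, or of 2 Jun proteins, that binds the palindrome TGANTCA, and Atf3 joins it as a stress-induced partner. The 250 bases upstream of the Fos and Jun start sites are shown because these genes had the largest differences of the 31 in opposite directions. Sequences are from RefSeq on GRCm38.p6, for Fos chr12:85473640-85473889 on the plus strand and for Jun chr4:95052223-95052472 on the minus strand, written 5′ to 3′. Capitals mark TATAAA and both copies of GGCGCC in Fos, and CCAAT and the match to TGACNTCA in Jun.
Fos: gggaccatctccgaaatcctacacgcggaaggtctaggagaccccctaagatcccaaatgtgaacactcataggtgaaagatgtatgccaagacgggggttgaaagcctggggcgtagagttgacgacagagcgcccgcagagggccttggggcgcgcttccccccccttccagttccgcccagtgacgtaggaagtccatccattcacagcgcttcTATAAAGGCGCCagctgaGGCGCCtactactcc
Jun: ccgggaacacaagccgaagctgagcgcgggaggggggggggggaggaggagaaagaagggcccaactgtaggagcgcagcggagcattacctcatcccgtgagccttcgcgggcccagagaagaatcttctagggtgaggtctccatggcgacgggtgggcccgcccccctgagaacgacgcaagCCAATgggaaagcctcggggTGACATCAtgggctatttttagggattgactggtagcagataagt

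In the Fos window, TATAAA stood at -33 to -28 from the start site and GGCGCC, a sequence that BMP-responsive SMAD proteins are known to bind, at -27 to -22 and -15 to -10. The serum response element of Fos is known to lie further upstream than this window. In the Jun window, CCAAT stood at -65 to -61 and TGACATCA at -45 to -38. Such matches describe letters, not occupied sites.

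Windows were at hand for 20 of the 31 members, 22 windows in all, and both strands of their 250 bases were searched. GGCGCC was in 8 of the 22 windows (36.4%), against 9.59% of 32851 windows genome-wide. These were windows of Dusp1, Dusp5, Etv5, Fos, Fosb, Nr4a1, Nr4a2 and Spred1, and in Nr4a1 it overlapped the EGR motif. TGACNTCA was in 2 (Dusp1 and Jun) against 7.49% of all windows, GCGNGGGCG, the EGR motif, in 3 against 4.70%, TATAAA in 3 against 12.4% and CCAAT in 8 against 33.8%. The CArG box bound by serum response factor was in 1 window, that of Dusp5 with 2 boxes, against 1.47%. TGANTCA was in 0 against 6.75%, and CCGGAAG, an ETS motif, in 0 against 6.91%. The difference in base composition between these windows and all others was not examined.

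Fos held 11.3, 30.3 and 14.5 CPM in G328V, against 5.41, 8.30 and 5.69 CPM in WT. Every G328V library lay above every WT library, with G328V replicate 2 the highest. The mean was 18.7 ± 10.2 CPM in G328V and 6.47 ± 1.59 CPM in WT (SD, n = 3 each). In the fit Fos had a log2 difference of 1.53 (SE 0.51), with an unadjusted p of 0.023 and an adjusted p of 0.997 in edgeR and an adjusted p of 0.209 in DESeq2. Without G328V replicate 2 the difference was 1.00.

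Jun held 22.2, 34.0 and 23.4 CPM in G328V, against 194, 33.8 and 67.8 CPM in WT. WT replicate 1 was far above the rest, and the groups overlapped only in that G328V replicate 2 lay just above WT replicate 3. The mean was 26.5 ± 6.48 CPM in G328V and 98.4 ± 84.2 CPM in WT (SD, n = 3 each). In the fit Jun had a log2 difference of -1.89 (SE 0.66), with an unadjusted p of 0.028 and an adjusted p of 0.997 in edgeR and an adjusted p of 0.280 in DESeq2. Without WT replicate 1 it was -0.96.

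Jund, the Jun protein that is usually present in resting cells, held 32.6, 39.3 and 46.7 CPM in G328V, against 54.5, 110 and 50.5 CPM in WT. Every G328V library lay below every WT library, narrowly so for 2 of the WT libraries. Jund had a log2 difference of -0.86 (SE 0.38), for which edgeR gave an unadjusted p of 0.063 and an adjusted p of 0.997. Without WT replicate 3 it was -0.42.

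Junb, a Jun protein that often opposes Jun, held 79.3, 239 and 88.2 CPM in G328V, against 7.02, 110 and 114 CPM in WT. WT replicate 1, which had the most Jun of the 6 libraries, had the least Junb. Junb had a log2 difference of 0.81 (SE 0.98), and of 0.25 without WT replicate 1. Fosb, a Fos relative known from neuronal activity, and Atf3 had log2 differences of -0.01 and -0.12. They ranged from 5.96 to 21.0 and from 2.72 to 9.81 CPM in G328V, and from 9.71 to 23.4 and from 4.37 to 7.97 CPM in WT.

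**Figure D3:**
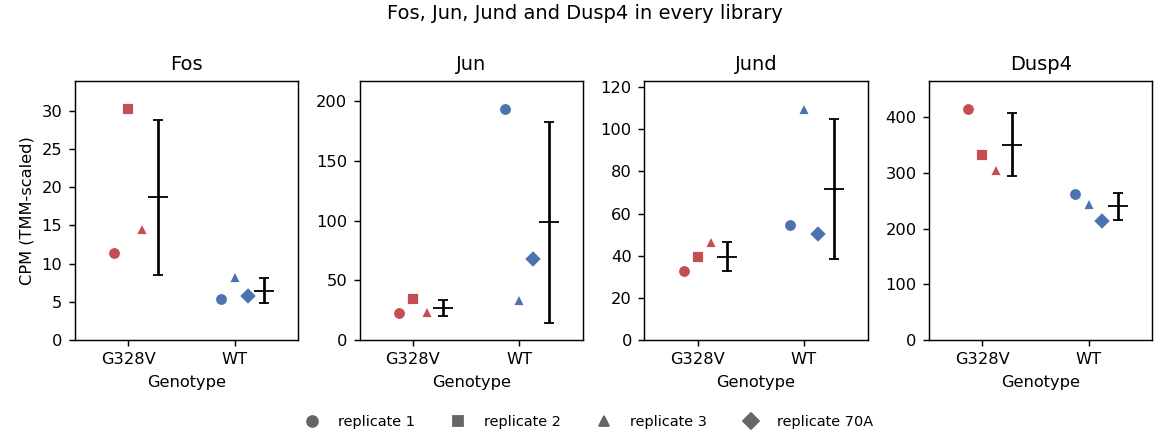
Levels of Fos, Jun, Jund and Dusp4 in each library (TMM-scaled CPM, linear axes from 0), with G328V left of WT, marker shape for the replicate, and a bar for mean ± SD (n = 3 each). Fos and Dusp4 lay higher in every G328V library and Jund lower, while for Jun the mean of 98.4 CPM in WT rested largely on the 194 CPM of replicate 1.

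Of the other 8 immediate early genes, 7 had a log2 difference above 0, with a median of 0.33, and in all 8 the groups overlapped. That count varied with the library left out. Without WT replicate 1, 4 of the 8 were above 0, with Ier2 at -0.36, Ier5 at -0.26 and Nr4a1 at -0.30 beside Egr3 at -1.30. Without G328V replicate 2, 5 of the 8 were above 0, and without WT replicate 70A all 8 were. Egr1, a zinc finger factor induced through serum response factor, held 86.4, 191 and 46.8 CPM in G328V, against 81.2, 60.7 and 97.9 CPM in WT. The WT range lay inside that of G328V, and the log2 difference was 0.44 (SE 0.53). Without G328V replicate 2 it was -0.26, and without G328V replicate 3 it was 0.80. Ier2, another early response gene, held 36.8, 42.3 and 41.3 CPM in G328V, against 14.2, 49.6 and 51.9 CPM in WT. Its G328V libraries were close together and lay between WT replicate 1 and the other WT libraries. Its log2 difference was 0.06 (SE 0.50).

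Dusp1 and Nr4a2 had the largest positive differences of these 8 and were chosen for mention after their values were seen. Dusp1, a nuclear phosphatase that acts chiefly on p38 and JNK, held 12.9, 27.5 and 34.8 CPM in G328V, against 9.49, 6.04 and 18.7 CPM in WT. The lowest G328V library lay below the highest WT library. Dusp1 had a log2 difference of 1.14 (SE 0.58). Nr4a2 held 7.78, 2.65 and 8.88 CPM in G328V, against 1.72, 1.95 and 5.55 CPM in WT, with a log2 difference of 1.07 (SE 0.81). The intervals of both held 0.

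The remaining 4 were Egr3, Ier5, Nr4a1 and Arc. Arc, a synaptic protein transcribed on neuronal activity, had the widest range of any member within G328V, from 0.593 to 28.5 CPM, against 2.76 to 10.9 CPM in WT. Egr3, a relative of Egr1, ranged from 1.59 to 11.3 CPM in G328V and from 0.796 to 17.3 CPM in WT. Nr4a1, an orphan nuclear receptor, ranged from 8.53 to 21.2 CPM in G328V and from 1.87 to 20.0 CPM in WT. Ier5, an early response gene, was steadier, at 59.0 to 73.9 CPM in G328V and 31.4 to 85.7 CPM in WT.

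WT replicate 1 stood at opposite ends for many feedback genes and many immediate early genes, a contrast that was not tested. It was the highest of the 6 libraries for 7 of the 17 feedback and output members (41.2%), against 23.1% of all genes. The same library was the lowest for 7 of the 14 immediate early members (50%), against 23.0% of all genes. The 7 lowest were Fos, Junb, Egr3, Ier2, Ier5, Nr4a1 and Nr4a2, while Jun was highest there. On the log2 scale the median deviation from the mean of the group means in WT replicate 1 was 0.36 for feedback and output members and -0.82 for immediate early members. WT replicates 3 and 70A were at -0.14 and -0.03 for feedback and output members and at 0.42 and 0.39 for immediate early members.

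Within G328V, replicate 2 was the highest of the 6 libraries for 10 of the 31 members (32.3%), against 19.1% of all genes, and replicate 1 the lowest for 9 (29.0%), against 1764 of 14643 genes. Median deviations in G328V replicates 1, 2 and 3 were -0.50, 0.35 and -0.03 for feedback and output members and 0.02, 0.57 and 0.10 for immediate early members. G328V replicate 2 therefore sat high for both kinds. The median range within a group was 2.69-fold in G328V and 2.65-fold in WT.

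**Figure D4:**
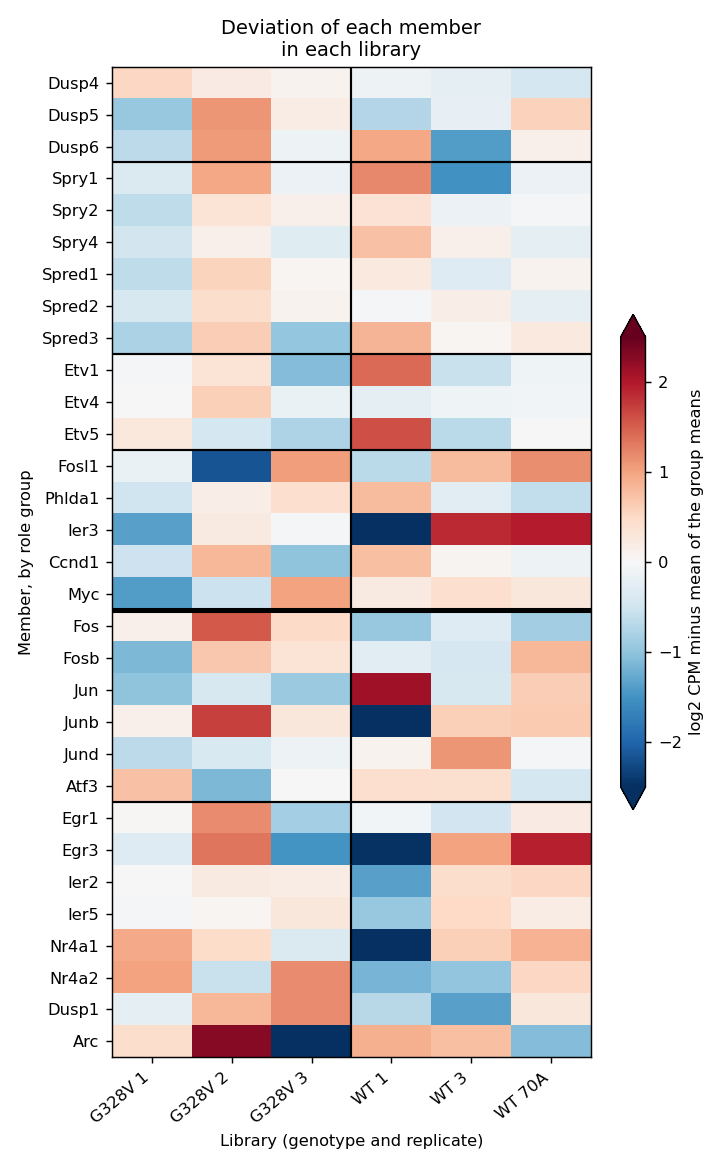
Deviation of each member in each library from the mean of the 2 group means (log2 CPM with a prior count of 2), red for above and blue for below, with colours saturating at the ends of the bar. G328V libraries are left of the vertical line and WT libraries right of it, and the heavy line parts the 17 feedback and output members from the 14 immediate early members. The WT replicate 1 column is red over most of the Sprouty, Spred and ETS genes and blue over most immediate early genes.

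Other gene lists also stood apart in WT replicate 1, and as this is 1 library no link to the members' values was tested. Over all genes it was the highest library for 23.1% and the lowest for 23.0%. Of the 12 tested neural stem and radial glia markers, 6 were highest there (50%), and their summed level of 9464 CPM stood against 2397 to 3827 CPM in the other 5 libraries. The summed level of the oligodendrocyte precursor markers was 182, 207 and 35.5 CPM in G328V and 1138, 53.0 and 108 CPM in WT, and WT replicate 1 was the highest library for 5 of the 8 tested markers. The 17 heat shock and stress genes were lowest in WT replicate 1 for 12 (70.6%). Of 30 other MAPK target genes 14 were lowest there (46.7%), and of 33 other immediate early genes 12 (36.4%). The other MAPK target genes had a median deviation of -1.05 there, opposite in sign to the 0.36 of the feedback and output members. Whether cell makeup or handling plays a part in the members' values was not tested.

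Genes around the members in the pathway also gave 0 calls in edgeR. In the cascade from receptors to ERK, 37 of 41 listed genes were tested, with a median log2 difference of -0.04, 16 above 0 and 21 below. Groups did not overlap for 7 of the 37 genes, 3 higher and 4 lower in G328V, against 9.7% of all genes. The smallest unadjusted edgeR p-values belonged to Ets2, Pea15a and Grb2, all lower in G328V without overlap. Ets2, an ETS factor that ERK phosphorylates, held 57.2, 75.5 and 60.4 CPM in G328V, against 128, 102 and 192 CPM in WT (log2 difference -1.13, SE 0.31). Pea15a, which keeps ERK in the cytoplasm, held 75.0, 159 and 77.3 CPM in G328V, against 232, 217 and 173 CPM in WT. Grb2, the adaptor that brings SOS to receptors, held 87.3, 74.9 and 93.6 CPM in G328V, against 130, 126 and 115 CPM in WT. None of the 3 had an adjusted p under 0.05 in edgeR or DESeq2.

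Sos1, the exchange factor that loads RAS, was named after its values were seen because 1 library stood out. It held 119, 118 and 103 CPM in G328V, whereas WT replicates 1, 3 and 70A had 110, 1052 and 109 CPM. WT replicate 3 was the highest library for 0 of the 17 feedback and output members (18.4% of all genes) and the lowest for 2 of them, Dusp6 and Spry1 (19.8% of all genes). The 30 other MAPK target genes had a median deviation of 0.72 in that library, and 7 of them were highest there (23.3%). Whether the Sos1 level bears on any of these values was not tested.

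The 30 other MAPK target genes had a median log2 difference of -0.31, with 10 above 0 and 20 below. Dusp10, a phosphatase of p38 and JNK, was lower in G328V without overlap, at 15.1, 6.18 and 7.52 CPM in G328V and 22.7, 55.4 and 18.0 CPM in WT. Hbegf, a ligand of the EGF receptor, held 22.9, 86.7 and 48.3 CPM in G328V, against 200, 149 and 77.0 CPM in WT. Plau, the urokinase protease, held 36.0, 5.27 and 31.8 CPM in G328V, against 7.56, 115 and 643 CPM in WT. Their log2 differences were -1.74, -1.43 and -3.39, and none passed either test.

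Of 33 tested further immediate early genes, edgeR called 0 and DESeq2 called 1, where DESeq2 called 1.05% of all genes. That gene was Gadd45b, a stress sensor that TGF-beta also induces. It held 10.4, 17.4 and 7.71 CPM in G328V, against 2.73, 3.79 and 2.49 CPM in WT, so every G328V library lay above every WT library. Gadd45b had a log2 difference of 1.98 (SE 0.55), and DESeq2 gave an adjusted p of 0.010 where edgeR gave an unadjusted p of 0.010. Btg2, an antiproliferative gene induced by p53, was lower in G328V without overlap, at 7.49, 22.9 and 12.5 CPM in G328V and 68.1, 77.0 and 28.9 CPM in WT. Cyr61, a matrix protein induced by serum and by YAP, held 22.9, 405 and 139 CPM in G328V, against 11.1, 15.3 and 55.1 CPM in WT. The list's median was 0.28, and groups did not overlap for 4 of the 33, 3 higher and 1 lower in G328V, against 9.7% of all genes.

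Among 17 heat shock and stress genes the median log2 difference was 0.16. The co-chaperone Dnajb4 alone had groups that did not overlap, against 9.7% of all genes. It held 20.3, 21.8 and 27.2 CPM in G328V and 14.6, 8.92 and 14.8 CPM in WT. Asns, asparagine synthetase, and Hspd1, the mitochondrial chaperonin, had log2 differences of 0.59 and 0.54 with overlapping groups. The comparison with BMP targets gives a scale for these values. The 13 BMP targets had a median log2 difference of 2.70, and edgeR called 0 of them, as of the members. Their groups did not overlap for 9, all higher in G328V, against 9.7% of all genes. DESeq2 called 4 of the 13, against 1.05% of all genes. Smad6, an inhibitory SMAD, held 37.5, 65.8 and 57.7 CPM in G328V, against 0.821, 5.47 and 6.87 CPM in WT. Bambi, a BMP pseudoreceptor, and Smad9, a BMP-responsive SMAD, had log2 differences of 2.31 and 6.63.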

How the data were processed

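Total RNA was sequenced from 6 neurosphere cultures, 3 of each genotype. Per the labels' protocols, RNA was ribosome-depleted and made into stranded libraries, a TruSeq and a Pico kit are both named without saying which libraries each served, and paired ends were read. The submitters' processing notes name mm10, FastQC 0.11.3, TopHat2 2.0.13 and Bowtie2 2.2.1 without roles. The deposited HTSeq table holds raw counts per gene symbol, and the deposited Cufflinks table holds estimated counts, rounded here to whole numbers for 1 alternative. Neither the annotation nor whether counting used strand is stated in the sources used here. Columns were matched to samples by the descriptions in the labels. Duplicate libraries were looked for and not found (smallest chi-square per degree of freedom 1335).

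The test of the counts was that of edgeR 4.0.16 under R 4.3.3 (quasi-likelihood, legacy robust fit, TMM, filterByExpr with a minimum count of 10, no covariate), adjusted over 14643 genes at 0.05. Standard errors were derived from the F statistic, and intervals are 95%. DESeq2 1.42.0 and limma-voom 3.58.1 were alternatives, and the 1030 genes without an adjusted p in DESeq2 were kept as NA. The tests were first run on simulated counts with planted changes larger than any member's fitted difference. That run does not show their power for the members. Lengths for CPM per kb are merged exons of GENCODE M21 (GRCm38). The ribosomal precursor Rn45s took 3.16% to 10.7% of counts. The replicates are called biological, with no animal or culture named, and p-values reflect only the spread among these 6 samples. The members, lists and tests were chosen with earlier results of these data known. Values by library were given for members whose groups did not overlap, with an unadjusted edgeR p under 0.05, called by any tool, or among the 2 highest per length of their role, and for up to 3 genes with the smallest unadjusted p of each other list.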

Additional observations from a re-analysis of the deposited data

How the results depend on the processing

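The count of 0 called members held under all 15 alternatives (other tools, scalings, filters, the Cufflinks estimates, each library left out, the replicate block), and genes called over all were 0 except 173 by DESeq2. Members with an unadjusted p under 0.05 numbered 1 to 3, with 1 to 3 when a library was left out, where 3.01% to 6.75% of all genes reached that p. Members whose groups did not overlap numbered 3 or 4 under other scalings and filters (8.48% to 10.8% of all genes). They numbered 4 to 8 with a library left out (16.8% to 23.4% of all genes). They were 8 without G328V replicate 2 (21.5% of all genes), 5 without G328V replicate 3 (17.6%), 6 without WT replicate 1 (23.4%) and 7 without WT replicate 70A (17.6%), and fewer libraries make non-overlap easier for any gene. Counts without these 2 libraries that stand apart, WT replicate 1 and G328V replicate 2, were chosen for mention after seeing the data. The members' median log2 difference ran from -0.26 to 0.15 when a library was left out. Numbers 1 and 3 alone occur in both groups, with correlations of same-numbered deviations of 0.18 and 0.23. With the replicate block on these 4 libraries the median was -0.17 and the members under 0.05 were Ccnd1 and Spred3, in place of Fos and Jun. Of 465 values of single members, 458 stayed within the replicate spread or on the same side of the threshold and 7 moved, and 11 of 31 members kept their sign throughout. That spread is wide, so the 458 are no measure of stability. Arc went from 0.66 to -0.87 without G328V replicate 2 and still counted as within it. The block put Fosl1 at 0.38. With library totals only, the median over all genes was 0.12 and that over the members 0.10. The lowest count of any member in any library was 98, and the part of depth in these values was not tested separately.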
